A study of Mus musculus with 11 samples.

Results

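Cocaine self-administration was compared with the yoked control in RNA bound to tagged ribosomes of mouse pyramidal neurons. The members are the 3 immunopurified (IP) libraries labelled cocaine self-administration and the 3 labelled yoked control, 6 of the 11 libraries of the series, and all 32531 genes of their count tables, of which 15863 passed the expression filter. All animals were adult mice of the Glt25d2-EGFP/Rpl10a line DU9, cocaine and yoked groups alike, and belonged to a short-access intravenous self-administration study. Mice of the line make an EGFP-tagged ribosomal protein L10a, driven by the Glt25d2 gene (current symbol Colgalt2), in deep-layer cortical pyramidal neurons. DU9 is 1 transgenic line, and no other line was compared here. The sample labels call the tissue cerebral cortex, but the protocol for extraction speaks of whole striatum. The sources used here do not give what the yoked mice received, their sex, or whether a library comes from 1 mouse or a pool. P-values thus rest only on spread between these libraries, which may be technical. That spread is estimated mostly from all genes together (a prior of 177 degrees of freedom beside 2 of the gene's own). The spread of a single gene over the replicate numbers can be wider than its p-value implies.

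Translating ribosome affinity purification (TRAP) pulls down EGFP-tagged ribosomes with the RNA they hold, so that a mixed tissue yields RNA enriched for 1 cell type. Pyramidal tract neurons of cortical layer 5 send the output of the cortex to the striatum, thalamus, brainstem and spinal cord. Cocaine blocks the reuptake of dopamine, noradrenaline and serotonin. A yoked control is used in such studies to separate the taking of a drug from other aspects of the session, because the timing of what the yoked animal receives is set by another animal.

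Markers of the labelled cell type were present, beside those of striatal projection neurons. Colgalt2, the gene that drives the tag, was at 140, 83.6 and 77.6 CPM (counts scaled to library size) in cocaine libraries 1, 2 and 3 and at 152, 78.6 and 91.6 CPM in yoked libraries 1, 2 and 3. Fezf2, which directs the fate of subcortical projection neurons, was at 157, 57.7 and 55.4 CPM in cocaine and 131, 56.8 and 62.1 CPM in yoked. The 16 layer 5 pyramidal tract markers summed to 1546, 988 and 933 CPM in cocaine 1, 2 and 3 and to 1609, 913 and 1021 CPM in yoked 1, 2 and 3. The 16 striatal projection neuron markers summed to 788, 1401 and 1341 CPM in cocaine and 1017, 1275 and 1468 CPM in yoked. The layer 5 sum was thus the larger in number 1 of both groups and the smaller in the other 4 libraries. Neither Colgalt2 nor Fezf2 passed the test between the groups, with log2 fold changes of -0.09 ± 0.17 and 0.04 ± 0.17 (± standard error, SE, here and below) and adjusted p-values of 0.857 and 0.948. The SE is the size of the log2 fold change divided by the square root of the test's F statistic. It therefore carries the spread pooled over genes and can be smaller than a gene's own spread over the numbers.

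The libraries numbered 1 stood apart from the others in both groups. Gene counts per library ran from 33633470 to 42613969. Reads outside annotated genes came to 13.99 per 100 gene counts in cocaine 1 and 13.78 in yoked 1, against 27.9 in cocaine 2, 31.2 in yoked 2, 19.7 in cocaine 3 and 34.2 in yoked 3. The difference between the groups in this share was thus widest in number 3. The 10 nuclear noncoding RNAs summed to 230 CPM in cocaine 1 and 450 CPM in yoked 1, against 2538 to 7573 CPM in the other libraries. All cocaine IP libraries carry 1 lane name in the labels and all yoked IP libraries another, so lane and group cannot be told apart. Each replicate number goes with the same index barcode in both groups. Deviations from the group means correlated between same-numbered libraries with r of 0.77, 0.58 and 0.42 for numbers 1, 2 and 3. Across numbers, cocaine 2 correlated with yoked 3 at 0.65, above the values within numbers 2 and 3, and cocaine 3 with yoked 2 at 0.39. The number 1 libraries thus paired with each other, while numbers 2 and 3 were not set apart from one another by this measure. The number was kept as a block.

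After cocaine self-administration 24 genes were higher and 117 were lower than in the yoked control (adjusted p under 0.05 in edgeR's quasi-likelihood test with the replicate number as a block and Benjamini-Hochberg adjustment over 15863 genes). These were 0.151% and 0.738% of the genes tested, and 0.889% together. The lower genes were led by Zbtb37 and Neat1 and included the noncoding RNAs Meg3 and Malat1 and the DNA-demethylating enzymes Tet1, Tet2 and Tet3. The higher genes were led by Churc1 and included Mrpl27 of the mitochondrial ribosome, Psmb5 of the proteasome and Snrpd2 of the spliceosome. The lower genes ranged from -0.62 to -3.69 on the log2 scale and 15 of them were at least 2-fold lower. No higher gene reached 2-fold, with log2 fold changes of 0.64 to 0.87. Among the calls, 29 lower and 4 higher entries have accession-like, Gm, Rik or similar symbols and are counted here without being described. Some of them match a current gene by synonym, as Gm608, 1110001J03Rik and 2010107G23Rik do. AI414108 matches the same gene as Igsf9b, so that gene is counted among the lower genes under both symbols.

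The calls depended on which libraries entered. The ratio of cocaine to yoked was taken within each replicate number: over the 117 lower genes its median log2 value was -1.05, -0.24 and -1.10 in numbers 1, 2 and 3, and over the 24 higher genes it was 1.25, 0.14 and 0.69. These members were chosen by the same fit, so the medians describe them and support nothing further. Number 2 had the smallest ratios in both directions. Without the libraries of number 1 there were 0 higher and 15 lower genes, 14 of them among the 117. Without those of number 3 there were 0 of each, with 975 genes at an unadjusted p under 0.05, and without those of number 2 there were 243 higher and 370 lower. Leaving out cocaine 1, cocaine 3, yoked 1 or yoked 3 alone ended every call, whereas leaving out cocaine 2 gave 267 higher and 364 lower genes and leaving out yoked 2 gave 229 and 337. With the block, these fits compare the same pairs as the fits without that number, so they are not separate evidence. Without the block there were 0 of each by the same test, with 71 genes at an unadjusted p under 0.05. With the 3 saline self-administration IP libraries added and the block kept there were also 0 of each, with 3006 at an unadjusted p under 0.05, a set that held all 141 calls. The 141 were chosen from libraries that are also in this fit, so their place in that set supports nothing further. DESeq2 size factors in the same fit gave 3 higher and 91 lower genes and upper-quartile factors 53 and 200. Across all genes tested, 18.4% were above yoked in all 3 numbers and 18.1% below it. Of the calls, 20 of 24 higher and 113 of 117 lower genes had their direction in all 3.

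**Figure D1:**
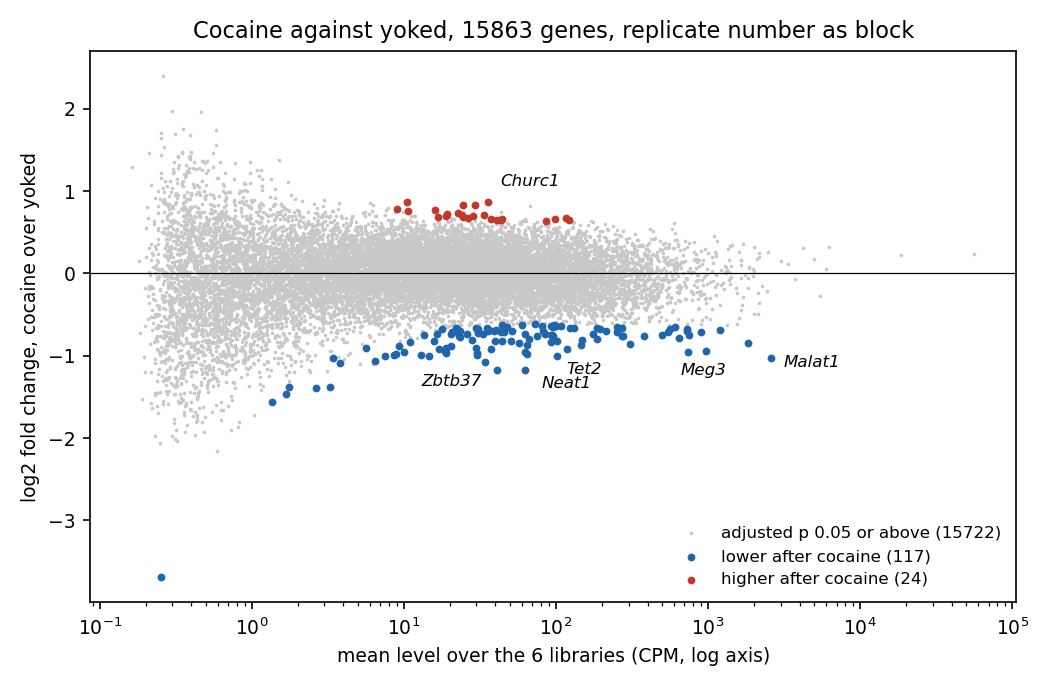
Log2 fold change of cocaine over yoked (vertical axis) against the mean level over the 6 libraries in CPM (horizontal log axis), 1 point per gene for the 15863 genes tested. The 117 lower genes (blue) run from -0.62 down to -3.69 and include abundant RNAs such as Malat1, and the 24 higher genes (red) lie between 0.64 and 0.87.

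RefSeq promoters were taken for the called genes to show the DNA that starts their transcription. Entries matched 71 of the 117 lower and 20 of the 24 higher genes. The 250 bases before the start site are printed for the lower gene of smallest p-value, Zbtb37, for the demethylase Tet2 and for the higher gene of smallest p-value, Churc1, in lower case, 5′ to 3′ on the gene's own strand, with GC boxes (GGGCGG on either strand, the letters bound by Sp1-type factors) in capitals. They lie in GRCm38.p6 at chr1:161034850-161035099 on the minus strand, chr3:133544391-133544640 on the minus strand and chr12:76765288-76765537 on the plus strand. The Tet2 window lies inside the gene's span in GENCODE M21 (133463679 to 133545139), so the 2 annotations place its start differently.
Zbtb37: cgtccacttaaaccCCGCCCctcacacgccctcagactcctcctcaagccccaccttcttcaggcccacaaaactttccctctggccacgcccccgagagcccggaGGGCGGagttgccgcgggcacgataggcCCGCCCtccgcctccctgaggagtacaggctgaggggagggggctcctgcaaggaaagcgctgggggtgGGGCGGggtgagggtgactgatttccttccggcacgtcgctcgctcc
Tet2: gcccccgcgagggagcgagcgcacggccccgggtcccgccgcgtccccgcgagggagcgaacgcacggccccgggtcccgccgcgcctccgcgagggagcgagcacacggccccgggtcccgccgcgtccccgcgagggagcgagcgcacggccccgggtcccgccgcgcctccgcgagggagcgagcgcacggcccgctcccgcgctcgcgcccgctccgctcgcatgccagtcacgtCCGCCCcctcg
Churc1: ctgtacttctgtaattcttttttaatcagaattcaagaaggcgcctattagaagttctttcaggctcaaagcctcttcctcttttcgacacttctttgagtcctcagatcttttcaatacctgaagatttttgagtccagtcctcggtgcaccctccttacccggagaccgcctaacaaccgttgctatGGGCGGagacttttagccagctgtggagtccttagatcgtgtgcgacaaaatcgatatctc
Zbtb37 holds 4 GC boxes and Tet2 and Churc1 hold 1 each. The Tet2 stretch is 83.6% G or C with 51 CpG pairs, against 68% and 18 for Zbtb37 and 45.2% and 10 for Churc1.

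Motifs of activity-driven and of general transcription were counted in the same 250 bases, on both strands. The cAMP response element TGACGTCA, bound by CREB, stood in 3 of 92 windows of the lower genes (3.26%), in 0 of 21 of the higher genes and in 2.48% of the windows of all genes tested. The AP-1 site TGANTCA, bound by Fos and Jun proteins, stood in 2 of the 92 (2.17%), in 1 of the 21 (4.76%) and in 4.45% of all. The E-box CACGTG stood in 9.78%, 9.52% and 7.96%, and the GC box in 51.1%, 47.6% and 55.4%. No motif holds the letters of another. These shares are descriptions of the windows and say nothing of whether a factor binds there.

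The lower gene of smallest p-value was Zbtb37. Zbtb37, a zinc finger protein of the BTB family, was at 2.14, 50.9 and 29.5 CPM in cocaine 1, 2 and 3 and at 6.31, 72.4 and 84.6 CPM in yoked 1, 2 and 3. Cocaine was below yoked in each number, by most in numbers 1 and 3, while the ranges of the groups overlapped because number 1 was low in both. The log2 fold change was -1.17 ± 0.18 (adjusted p = 5.06e-05). Zbtb37 spans 161002922 to 161034849 on chromosome 1, and its exons overlap those of Serpinc1, the antithrombin gene, on the opposite strand. Serpinc1 was itself called lower (-1.38 ± 0.32, adjusted p = 0.0116) with only 8 to 261 counts per library. The strand setting of the counting was not found in the sources used here, and reads of the 2 genes may not be separable.

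The next lower genes by p-value are described one by one, by what each encodes. Ikzf2, the zinc finger factor Helios, went from 7.08, 30.6 and 33.3 CPM in yoked to 2.69, 20.9 and 16.9 CPM in cocaine (-0.95 ± 0.19, adjusted p = 0.00227). Bach2, a leucine zipper repressor, fell by 0.87 on the log2 scale (adjusted p = 0.00422), and the homeodomain factor Onecut2 fell from 5.89, 18.2 and 34.2 CPM to 2.52, 15.7 and 11.4 CPM (adjusted p = 0.00409). Both had smaller ratios in number 2 than in the other numbers. Zfp704, a zinc finger protein, fell from 73.1, 515 and 534 CPM to 30.3, 434 and 256 CPM (-0.86 ± 0.18, adjusted p = 0.00422). Bend4, a BEN domain protein, fell by 0.85 (adjusted p = 0.00341). Outside the naming rule, and picked after their values were seen, Pou2f1 (-0.81, adjusted p = 0.00719), Nfatc3 (-0.72, adjusted p = 0.0228) and Elk4 (-0.67, adjusted p = 0.035) are transcription factors that were also called lower. Pou2f1 is of the octamer family and Nfatc3 of the calcineurin-regulated one.

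The remaining lower genes of smallest p-value have other roles. Ahnak, a very large scaffold protein, went from 7.76, 59.5 and 65.3 CPM in yoked to 3.16, 49.8 and 19.7 CPM in cocaine (-1.08 ± 0.19, adjusted p = 0.00114). Trp53inp1, a p53 target that takes part in autophagy, went from 10.8, 43.5 and 63.7 CPM to 4.39, 37.5 and 22.6 CPM (-0.99 ± 0.19, adjusted p = 0.00159). Both differed by more in numbers 1 and 3 than in number 2. Igsf9b, an adhesion protein of inhibitory synapses, fell from 9.71, 32.8 and 36 CPM to 4.78, 23.2 and 16.4 CPM (-0.88 ± 0.18, adjusted p = 0.00409), with a log2 ratio of -0.50 in number 2. Kinases and a receptor picked after their values were seen were called lower as well: Hipk2 (-0.74), Map3k9 (-0.76) and the TGF-beta receptor Tgfbr1 (-0.75), with adjusted p-values of 0.013, 0.0122 and 0.0399. The gene with the steepest fold, Pm20d1 (-3.69 ± 0.95, adjusted p = 0.0275), had 0 to 23 counts per library.

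Nuclear noncoding RNAs, which are kept mostly in the nucleus and away from ribosomes, held the largest share of calls of any list described. Of 10 tested, 5 fell, 0 rose, and all 10 lay below yoked, with a median log2 fold change of -0.70 against 0.0023 over all genes tested. Among all 15863 genes tested 0.738% fell and 7884 lay below yoked. Among genes of 12001 nt or longer in exonic length 3.74% fell. Neat1, Meg3 and Kcnq1ot1 are of such length, while Malat1 and Miat are shorter. Neat1, the scaffold RNA of nuclear paraspeckles, was at 0.364, 77.4 and 46.9 CPM in cocaine and 1.45, 106 and 141 CPM in yoked (-1.17 ± 0.20, adjusted p = 0.000547). Meg3, an imprinted RNA, was at 41.2, 921 and 649 CPM against 101, 1200 and 1493 CPM (-0.96 ± 0.18, adjusted p = 0.00156). In both RNAs cocaine was below yoked in each number and the groups' ranges overlapped. Malat1, an abundant RNA of nuclear speckles, was at 101, 4113 and 1570 CPM against 237, 4280 and 5353 CPM (-1.02 ± 0.21, adjusted p = 0.00566), a log2 ratio of -1.22, -0.06 and -1.77 in numbers 1, 2 and 3. Miat fell by 0.84 (adjusted p = 0.00433), and Kcnq1ot1, the antisense RNA of an imprinted domain, fell by 0.92 (adjusted p = 0.0117). The list's median ratio was -0.61, -0.07 and -1.15 in numbers 1, 2 and 3. Its summed level of 230, 5555 and 2538 CPM in cocaine and 450, 6090 and 7573 CPM in yoked moved with reads outside annotated genes in number 3, where these came to 19.7 per 100 gene counts in cocaine and 34.2 in yoked. In number 2 both were lower in cocaine, with reads outside genes at 27.9 in cocaine and 31.2 in yoked. In number 1 the sum was lower in cocaine while reads outside genes came to 13.99 in cocaine and 13.78 in yoked. Without the libraries of number 3 the list's median was -0.39, and without those of number 2 it was -0.96. The part of nuclear RNA carried through the purification in these and the other lower calls was not tested.

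**Figure D2:**
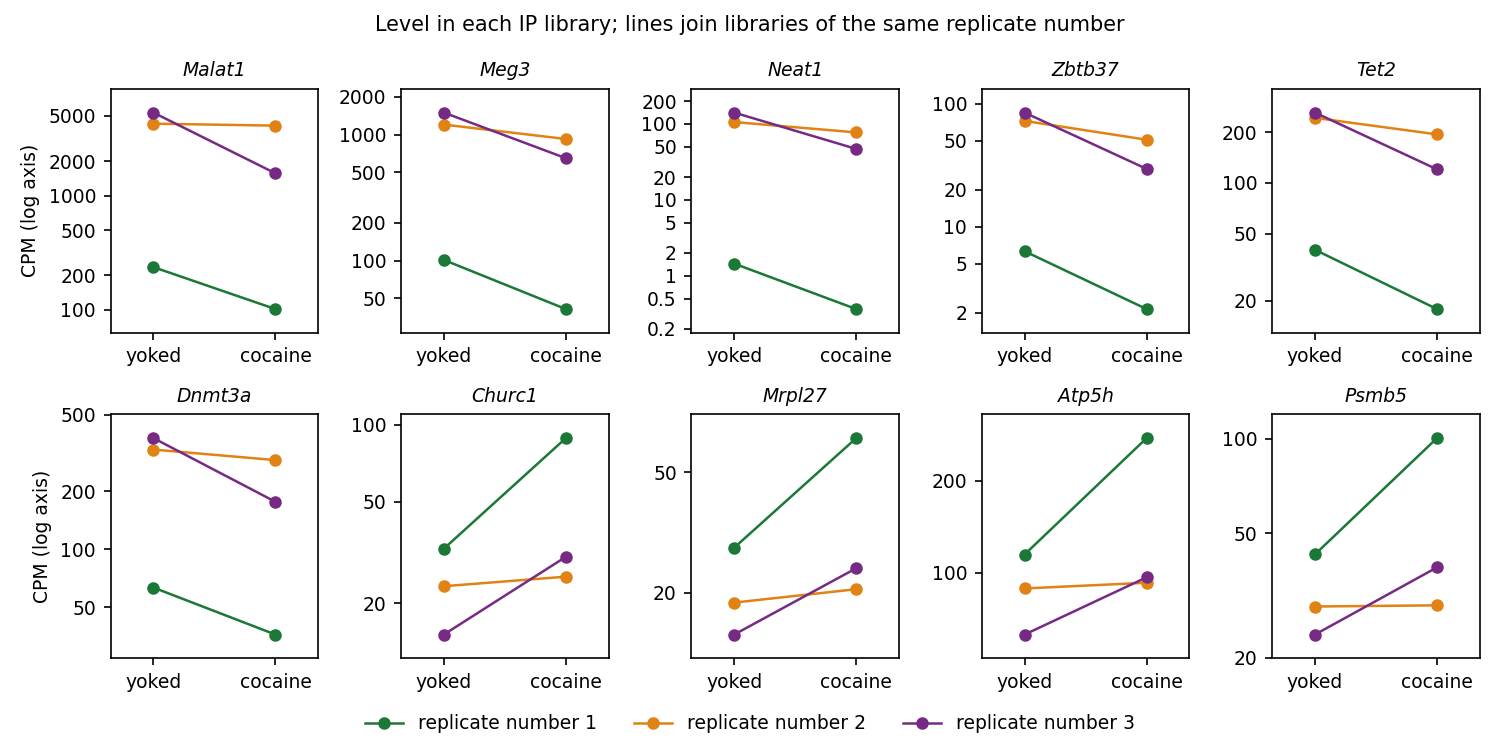
Level in CPM (log axis) of 10 called genes in the yoked and cocaine libraries, 1 point per library, with a line joining the libraries of the same replicate number. Malat1, Meg3, Neat1, Zbtb37, Tet2 and Dnmt3a slope down and Churc1, Mrpl27, Atp5h and Psmb5 slope up, steeply in numbers 1 and 3 and little in number 2, and number 1 (green) lies far below the others in the upper row.

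Enzymes that write and erase DNA methylation were among the lower genes. Of 26 chromatin-modifying enzymes, 4 fell, 0 rose, and 19 lay below yoked, with a median log2 fold change of -0.22. Among all genes tested 0.738% fell, and among those over 12000 nt of exonic length, as the 4 called enzymes are at 15457 to 16870 nt, 3.74% fell. The TET proteins oxidise 5-methylcytosine, the first step of active demethylation. Tet2 was at 17.8, 194 and 120 CPM in cocaine and 40.1, 243 and 261 CPM in yoked (-0.87 ± 0.18, adjusted p = 0.00301). Tet1 was at 12.6, 123 and 77.7 CPM against 22.6, 154 and 166 CPM (-0.75 ± 0.17, adjusted p = 0.0116), and Tet3 at 22, 163 and 122 CPM against 44, 190 and 207 CPM (-0.66 ± 0.17, adjusted p = 0.0359). All 3 TET genes were lower in cocaine in each number. Dnmt3a, which places new methyl groups on DNA, was at 36, 291 and 176 CPM against 63.1, 330 and 378 CPM (-0.70 ± 0.18, adjusted p = 0.0275). The list's median ratio was -0.54, -0.09 and -0.04 in numbers 1, 2 and 3, and without the libraries of number 1 its median in the fit was -0.05. Its summed level was 1712, 3692 and 3029 CPM in cocaine and 2072, 3953 and 4311 CPM in yoked, with the widest gap in number 3.

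Some single genes with roles in microRNA silencing or RNA decay were picked after their values were seen, and no list of such genes was tested. Ago2, the Argonaute protein that cuts target RNA, was at 48.5, 331 and 233 CPM in cocaine and 110, 366 and 414 CPM in yoked (-0.71 ± 0.18, adjusted p = 0.0249). Ago3 stood at -0.64 ± 0.18 (adjusted p = 0.0473), and Tnrc6b, the GW182 protein that links Argonaute to deadenylation, at -0.67 ± 0.18 (adjusted p = 0.0375). Dcp2, the enzyme that removes the messenger RNA cap, stood at -0.71 (adjusted p = 0.0275). Cdr1, the gene over which a circular RNA rich in miR-7 sites is made, stood at -0.68 (adjusted p = 0.0451). A count by gene symbol does not tell the circular RNA from linear transcripts.

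The higher genes were mostly short, with a median exonic length of 1133 nt against 4464 nt over the tested genes with a length. Churc1, which led them by p-value, was an exception at 5693 nt. Churc1, a zinc-binding transcriptional activator, was at 88.6, 25.5 and 30.4 CPM in cocaine and 32.7, 23.4 and 15.1 CPM in yoked (0.86 ± 0.18, adjusted p = 0.00473). Cocaine was above yoked in each number, by 1.44 and 1.01 on the log2 scale in numbers 1 and 3 and by 0.12 in number 2. Churc1 spans 76765538 to 76783180 on chromosome 12 and shares exons with Fntb on the same strand, which makes its count uncertain. Rps4l (0.87, adjusted p = 0.0203) is annotated as a transcribed processed pseudogene of a ribosomal protein, so that its reads can be mixed with those of near-identical copies. Alkbh7, a mitochondrial dioxygenase, was at 61.8, 17.2 and 20.2 CPM against 19.9, 17.4 and 11.3 CPM (0.83 ± 0.20, adjusted p = 0.0248), with a log2 ratio of -0.01 in number 2. S100a1, a calcium-binding protein, was at 18.6, 18.4 and 22.2 CPM against 8.78, 17.9 and 9.79 CPM (0.77 ± 0.20, adjusted p = 0.0289). The groups of S100a1 did not overlap, as was the case for 4 of the 24 higher and 4 of the 117 lower genes; among all genes tested 3.04% had every cocaine library above every yoked library and 2.6% had every one below.

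The other higher genes given by the naming rule, and some outside it, are described one by one. Mrpl27 (0.70, adjusted p = 0.0284) and Mrps21 (0.71, adjusted p = 0.0393) are subunits of the mitochondrial ribosome. Mrpl27 was at 64.9, 20.5 and 24.1 CPM in cocaine and 28.1, 18.5 and 14.5 CPM in yoked. Outside the naming rule and picked after their values were seen, Timm8b (0.66), a carrier of mitochondrial import, and Etfb (0.64), an electron transfer flavoprotein, were called higher with adjusted p = 0.0473 each. Lsm3 (0.71, adjusted p = 0.0249) and Snrpd2 (0.73, adjusted p = 0.0437) are core proteins of spliceosomal RNPs, and Polr2j (0.65, adjusted p = 0.0473), also picked in that way, is a subunit of RNA polymerase II. Nsmce1 (0.70, adjusted p = 0.0389) belongs to the SMC5/6 complex, and Ppp1r11 (0.64, adjusted p = 0.0424) inhibits protein phosphatase 1. Mien1 (0.67, adjusted p = 0.0414) overlaps Erbb2 on the opposite strand.

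The lists of energy metabolism and protein turnover lay almost wholly above yoked, with few members past the test. Of all 15863 genes tested, 0.151% rose and 7979 lay above yoked. All 37 genes listed under respiratory complex I, by their names and not all of them certain subunits, lay above yoked and 0 were called. Their median log2 fold change was 0.44 and their median ratio 0.95, 0.06 and 0.30 in numbers 1, 2 and 3. Without the libraries of number 1 the median was 0.16. Ndufb8, an accessory subunit, was at 418, 122 and 117 CPM in cocaine and 148, 111 and 95.5 CPM in yoked (0.64 ± 0.19, adjusted p = 0.0667). Of the same list, Ndufa4 (0.34), whose place in complex I is not certain, and Ndufa7 (0.64) had adjusted p-values of 0.356 and 0.0763. All 38 subunits of complexes II to V lay above yoked with a median of 0.44 (0.18 without the libraries of number 1), and 1 rose. That subunit was Atp5h, of ATP synthase, at 276, 92.6 and 96.5 CPM against 115, 88.7 and 62.6 CPM (0.65 ± 0.18, adjusted p = 0.0473). The abundant ATP synthase genes Atp5b (0.32) and Atp5a1 (0.30) and the complex III gene Uqcrh (0.58) had adjusted p-values of 0.4, 0.448 and 0.0913. Of 16 glycolytic enzymes 15 lay above yoked and 0 were called, with a median of 0.24 (0.14 without the libraries of number 3). Aldoa, the aldolase of glycolysis, stood at 0.35 (adjusted p = 0.358), Eno2, the neuronal enolase, at 0.26 (adjusted p = 0.534) and Pgk1 at 0.46 (adjusted p = 0.164).

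Ribosomal and proteasomal genes followed the same order of numbers, and the shares over all genes tested are again 0.151% risen and 7979 above yoked. All 58 cytosolic ribosomal protein genes tested lay above yoked, with a median of 0.44, of 0.22 without the libraries of number 1, and a median ratio of 0.87, 0.02 and 0.37 in numbers 1, 2 and 3. Only Rpl7a rose, from 11, 7.08 and 5.42 CPM in yoked to 19.9, 8.44 and 12.3 CPM in cocaine (0.76 ± 0.21, adjusted p = 0.0473). Rpl4 (0.30), Rps3 (0.54) and Rpl32 (0.60) had adjusted p-values of 0.425, 0.115 and 0.0654. These genes have many pseudogene copies, and entries for reads aligned to more than 1 place made up 47.0% of all entries in cocaine 1 and 38.4% in yoked 1, against 35.8% to 37.5% in the other libraries. All 31 proteasome subunits lay above yoked with a median of 0.39 (0.27 to 0.54 when 1 library was left out) and 1 rose. Psmb5, the subunit with chymotrypsin-like activity, was at 101, 29.4 and 38.9 CPM in cocaine and 42.7, 29.1 and 23.7 CPM in yoked (0.66 ± 0.18, adjusted p = 0.0437). The proteasome genes Psmb4 (0.54), Psmb6 (0.62) and Psmc5 (0.29) had adjusted p-values of 0.109, 0.0621 and 0.446. Among 33 translation factors 27 lay above yoked and 0 were called, with a median of 0.20; Eif3g stood at 0.58 (adjusted p = 0.0667) and Eif5a at 0.50 (adjusted p = 0.143).

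Direction followed transcript length across the whole transcriptome. Exonic length, the summed exons of a gene in GENCODE M21, had a median of 1133 nt over the 24 higher genes and 9511 nt over the 94 lower genes with a length, against 4464 nt over the 14649 tested genes with one. Of 347 genes of at most 1000 nt, 10 rose and 0 fell, and their median log2 fold change was 0.37. Of 855 genes over 12000 nt, 0 rose and 32 fell (3.74%), and their median was -0.25. Across the 14649 genes the log2 fold change had a Spearman correlation with length of -0.44, and within numbers 1, 2 and 3 it was -0.51, -0.05 and -0.23. Genes share their libraries and are not independent replicates, so this is a description. The gradient was steep in number 1, shallower in number 3 and nearly flat in number 2. When the trend with length was removed from each library and limma-trend was applied with the same block, 0 higher and 3 lower genes were called, against 90 and 161 without that step on the same 14649 genes. The 3 were Zbtb37 (-0.92, adjusted p = 0.0259), Neat1 (-1.01, adjusted p = 0.0259) and Meg3 (-0.70, adjusted p = 0.0391). The median of complex I fell from 0.44 to 0.21 in that fit and that of the ribosomal protein genes to 0.22. The same step moved the nuclear noncoding RNAs to -0.37 and the chromatin-modifying enzymes to -0.05. By gene type, 10 of the 94 annotated lower genes were lincRNAs (10.6%), against 1.39% of all annotated genes tested. Whether the gradient arose in the cells or in the purification and library preparation was not tested.

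**Figure D3:**
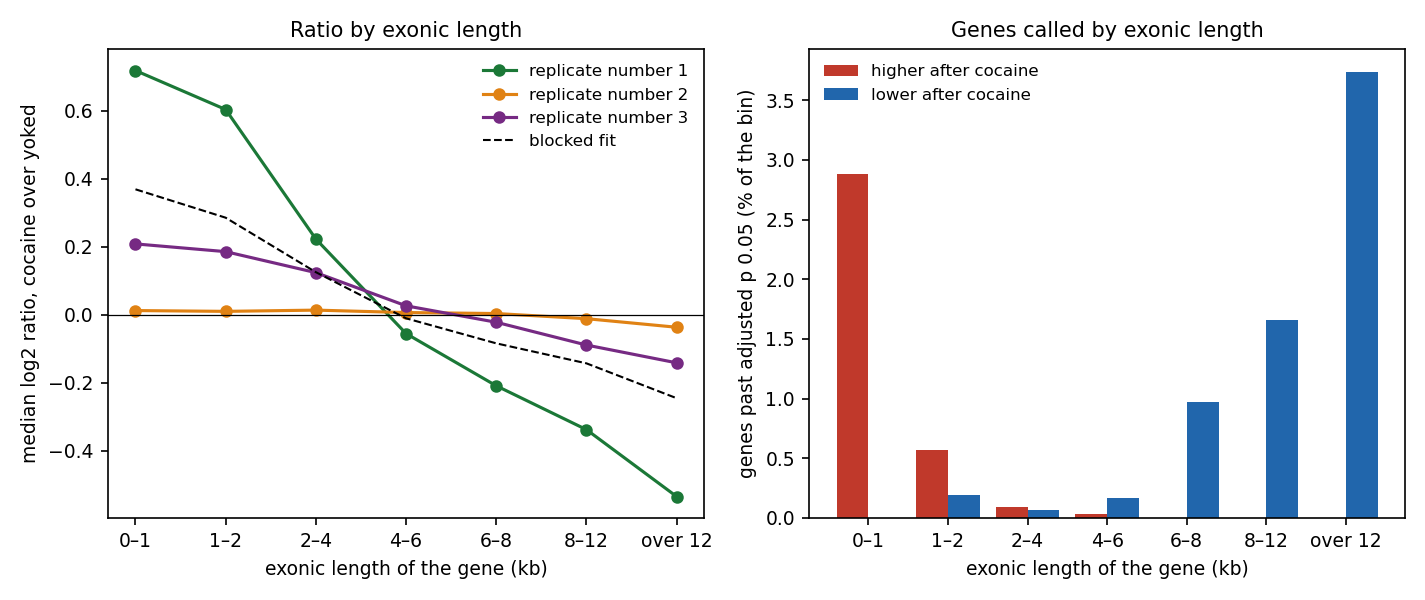
Left, median log2 ratio of cocaine over yoked in 7 bins of exonic length (kb), with 1 line per replicate number and a dashed line for the blocked fit, and right, the percentage of genes in each bin that passed the test. The ratio falls from 0.37 in the shortest bin to -0.25 in the longest in the blocked fit, with number 1 steepest and number 2 nearly flat.

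Glutamate receptor genes lay mostly below yoked, with 1 member past the test. Grik3, a kainate receptor subunit, was at 35.4, 107 and 91.2 CPM in cocaine and 62.8, 134 and 149 CPM in yoked (-0.62 ± 0.17, adjusted p = 0.0473). It was the only call among 12 kainate and metabotropic receptor genes, all 12 of which lay below yoked with a median of -0.22. Of all 15863 genes tested, 0.738% fell and 7884 lay below yoked. Of 6 NMDA receptor subunits 0 were called and all 6 lay below yoked, with a median of -0.23, which was -0.08 without the libraries of number 1 and -0.46 without those of number 2. Grin2a (-0.59 ± 0.17) and Grin2b (-0.57 ± 0.18), the regulatory subunits of mature and juvenile receptors, had adjusted p-values of 0.0599 and 0.0763, while the obligatory subunit Grin1 stood at -0.07 (adjusted p = 0.882). Grin2b levels were 99.5, 225 and 180 CPM in cocaine and 190, 266 and 261 CPM in yoked, lower in each number. Among 12 AMPA receptor genes and partners 0 were called and the median was -0.17 (-0.27 without the libraries of number 2), with Gria2 at -0.17 (adjusted p = 0.697) and the auxiliary subunit Shisa6 at -0.41 (adjusted p = 0.294). The metabotropic receptor Grm5 stood at -0.16 (adjusted p = 0.713). With the length trend removed the medians of the kainate and metabotropic, NMDA and AMPA lists were -0.16, -0.19 and -0.16.

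Monoamine receptors, on which cocaine acts through its transmitters, gave 1 call. Adra1a, the alpha-1A adrenergic receptor, was at 15.4, 60.9 and 42.7 CPM in cocaine and 26.2, 75.3 and 87.3 CPM in yoked (-0.70 ± 0.17, adjusted p = 0.0178). It was lower in cocaine in each number, with the groups overlapping. It was the only call among 21 serotonin and adrenergic receptor genes, where 0.738% of all genes tested fell. The median of the 21 was -0.13 and turned to 0.02 without the libraries of number 3. The serotonin receptors Htr2a and Htr2c stood at -0.32 and -0.18 (adjusted p = 0.403 and 0.665). Of 14 dopamine signalling genes 0 were called, with a median of 0.07 (0.02 to 0.17 over the fits that left out a library or a number). Drd1, the D1 dopamine receptor, was at 20.1, 23 and 20.5 CPM in cocaine and 17.9, 21.6 and 22.6 CPM in yoked (0.04 ± 0.18, adjusted p = 0.949), and Ppp1r1b, which encodes DARPP-32, stood at 0.25 (adjusted p = 0.515). The vesicular monoamine transporter Slc18a2 stood at -0.64 ± 0.25 (adjusted p = 0.182) and Rgs9, a brake on G protein signalling, at -0.45 (adjusted p = 0.202). Of 15 opioid and cannabinoid genes 0 were called; the delta receptor Oprd1 was at 5.68, 23.6 and 20.3 CPM against 10, 26.3 and 37.9 CPM (-0.62 ± 0.18, adjusted p = 0.0663), the kappa receptor Oprk1 at -0.50 (adjusted p = 0.261), the cannabinoid receptor Cnr1 at -0.35 (adjusted p = 0.344) and the enkephalin precursor Penk at 0.28 (adjusted p = 0.448).

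Ion channel and synaptic scaffold genes lay mostly below yoked without a call, while 7884 of all 15863 genes tested lay below it. Of 35 potassium channel genes 29 lay below yoked (median -0.21), of 23 voltage-gated sodium and calcium channel genes 21 did (median -0.26), and of 30 scaffold and adhesion genes 27 did (median -0.19). Without the libraries of number 1 these medians were -0.11, -0.15 and -0.05. Kcna2, a potassium channel of axons, was at 257, 882 and 646 CPM in cocaine and 478, 990 and 1097 CPM in yoked (-0.61 ± 0.18, adjusted p = 0.0653), lower in each number. The calcium channel genes Cacna1e, Cacna1c and Cacnb4 stood at -0.55, -0.52 and -0.22 (adjusted p = 0.0912, 0.113 and 0.595) and the sodium channel Scn2a1 at -0.34 (adjusted p = 0.363). The scaffold genes Homer2 (-0.61) and Shank1 (-0.56) had adjusted p-values of 0.0599 and 0.108. Kalrn, a guanine exchange factor of dendritic spines, stood at -0.27 (adjusted p = 0.515). With the length trend removed the medians of the potassium channels, the sodium and calcium channels and the scaffold genes were -0.14, -0.12 and -0.06.

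Activity-regulated genes gave no call. Immediate early genes are induced within minutes of neuronal firing and are widely used to mark drug response. Of 23 tested 0 were called and the median was 0.02, with a ratio of -0.27, -0.04 and 0.24 in numbers 1, 2 and 3, and the median turned to -0.13 without the libraries of number 3. Fos was at 12.4, 21.1 and 14.7 CPM in cocaine and 15.7, 26.2 and 8.11 CPM in yoked (0.06 ± 0.20, adjusted p = 0.931), lower in numbers 1 and 2 and higher in number 3. Egr1 stood at 0.07, Egr3 at -0.12, Ier5 at 0.36 and Junb at 0.31 (adjusted p = 0.901, 0.806, 0.305 and 0.421). Of 20 genes of the later activity response 0 were called, with a median of 0.13 (0.04 to 0.20 over those fits). Among 20 neuropeptide genes 18 lay above yoked and 0 were called, with a median of 0.28 that was 0.17 without the libraries of number 1, 0.48 without those of number 2 and 0.01 once the length trend was removed. Cartpt, the precursor of the cocaine- and amphetamine-regulated transcript peptide, was at 5.44, 4.29 and 4.87 CPM in cocaine and 3.47, 4.16 and 2.81 CPM in yoked (0.49 ± 0.26, adjusted p = 0.371). The Cartpt groups did not overlap, but the difference did not pass the test. Cck stood at 0.27 (adjusted p = 0.499), Scg2 at 0.17 (adjusted p = 0.698), Crhbp at 0.52 (adjusted p = 0.209) and Cort at 0.84 ± 0.38 (adjusted p = 0.274).

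Markers of cell types that the purification could carry along showed 1 call. Fewer cells of a type and less RNA per cell cannot be told apart in such libraries. Slco1a4, a transporter of brain endothelium, was at 4.25, 2.2 and 0.619 CPM in cocaine and 7.79, 4 and 1.74 CPM in yoked (-1.03 ± 0.29, adjusted p = 0.0491). It was lower in each number, with log2 ratios of -0.87, -0.85 and -1.41, and was thus a call in which number 2 moved as far as number 1. Of 12 endothelial and mural markers 11 lay below yoked, as did 7884 of all 15863 genes tested, of which 0.738% fell. The median of the 12 was -0.49, and it was -0.23 without the libraries of number 1. The list summed to 25.8 to 28.2 CPM in cocaine and 24.8 to 39.1 CPM in yoked. Only 1 of the 12 averaged 5 CPM or more, so the median rests on markers of low level. Rgs5 and Vtn, the markers of highest level, stood at -0.05 and -0.09 (adjusted p = 0.951 and 0.914). Both were below yoked in numbers 1 and 2 and above it in number 3, with log2 ratios there of 0.43 and 0.48. Tek, an endothelial receptor kinase, stood at -1.25 ± 0.41 (adjusted p = 0.113) at 0.404 to 2.50 CPM. The layer 5 markers gave 0 calls of 16 with a median of -0.09 (-0.21 to -0.03 over those fits), with Ldb2 at 0.15, Npr3 at -0.44 and Fam84b at -0.35 (adjusted p = 0.737, 0.183 and 0.371). The 12 astrocyte markers gave 0 calls and a median of 0.01 and summed to 1716 to 3593 CPM in cocaine and 2140 to 3920 CPM in yoked. The astrocyte glutamate transporter Slc1a2 stood at -0.61 ± 0.18 (adjusted p = 0.0667), Slc1a3 at -0.11 (adjusted p = 0.814) and S100b at 0.31 (adjusted p = 0.384). The 12 oligodendrocyte, 12 microglia and 16 interneuron markers gave 0 calls, with medians of 0.11, 0.01 and 0.14. No direction is read from these, since without the libraries of number 3 they were -0.02, -0.16 and 0.01 and the astrocyte median was -0.19.

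**Figure D4:**
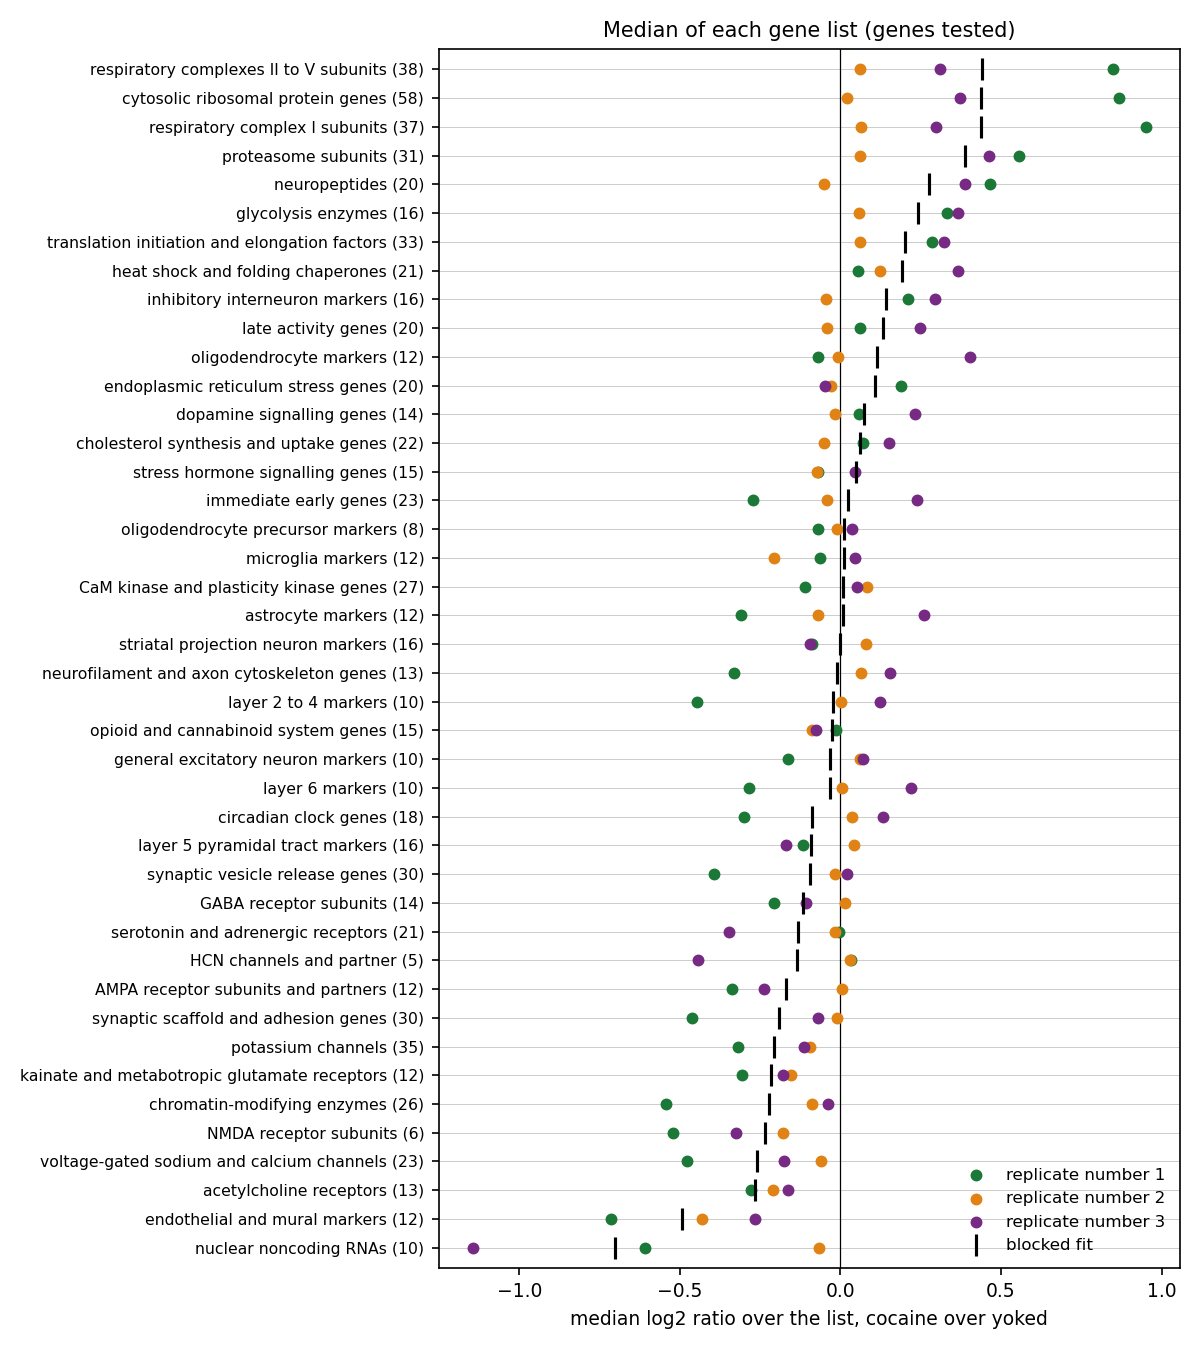
Median log2 ratio of cocaine over yoked for 42 gene lists (number of genes tested in brackets), with coloured points for the ratio within each replicate number and a black tick for the blocked fit. Respiratory, ribosomal and proteasome lists lie highest, at about 0.39 to 0.44 in the blocked fit, and nuclear noncoding RNAs lowest at -0.70, while number 2 lies near 0 in most lists.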

How the data were processed

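The authors deposited raw read counts per gene symbol, 1 table per library. The submitters' processing notes name STAR 2.0.0e, HTSeq and the mm10 build; the HTSeq version, gene annotation and strand setting were not found in the sources used here. Library sizes and tests leave out 6 entries that name no gene; reads in genes were 44.9% to 52.5% of all entries in the 6 libraries. Counts were scaled by TMM, filtered with filterByExpr and fitted in edgeR 4.0.16 (R 4.3.3; glmQLFit robust, glmQLFTest) with group and replicate number as terms, which leaves 2 residual degrees of freedom beside a prior of 177 drawn from all genes. Alternatives used limma 3.58.1 and DESeq2 1.42.0. Depth of 33633470 to 42613969 gene counts leaves little counting error except in genes with few counts, and reads carry no molecular identifiers.

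The number was used as a block because every same-numbered pair of libraries correlated above 0.1. It also marks the index barcode in the sample descriptions. The rule of 0.1 could not decide the pairing within numbers 2 and 3. Cocaine 2 with yoked 3 and cocaine 3 with yoked 2 (0.39) also passed it. Deviations from a group mean cancel out within the group, so with number 1 far off in both groups the other numbers tend to correlate in any pairing. Cocaine 2 correlated more closely with yoked 3 (0.65) than with yoked 2 (0.58).

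The comparison and its 45 gene lists were chosen with earlier results of these data known. Named genes are, by rule, the 12 genes of smallest p-value in each direction, for each list the 2 of highest level and 2 of smallest p-value (not all are printed), and 7 check genes; others are said to be picked after their values were seen. Positions come from GENCODE M21 (GRCm38, the assembly of mm10), matched by symbol or synonym for 92.3% of genes tested, and promoters from RefSeq (GRCm38.p6). Input, unbound and saline libraries were not used in the main fit. Count ratios within a number are log2 CPM differences with a prior count of 2. Some genes that the naming rule gives are not reported here.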

Additional observations from a re-analysis of the deposited data

How the results depend on the processing

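Every one of the 141 calls kept its sign in each alternative that tested it. The calls were chosen by the main fit and the alternatives use the same libraries, so this adds no support. The counts of higher and lower genes did not keep their size. They were 0 and 0 with no replicate block, 0 and 0 with all 9 IP libraries and the block, 0 and 0 with all 9 and no block, 3 and 91 with DESeq2 size factors, 53 and 200 with upper-quartile factors, 1 and 78 with DESeq2's Wald test, 60 and 188 with limma-trend, 44 and 131 with no low-count filter, 4 and 86 at a mean of at least 5 CPM, 22 and 116 without Rn45s, and 0 and 3 with the length trend removed in limma-trend with the block, against 90 and 161 on the same genes with a length, an alternative chosen after seeing the data. The smallest adjusted p was 0.98 with no block and 0.13 with 9 libraries and the block. Leaving out 1 library or the pair of 1 number gave 0 to 267 higher and 0 to 370 lower genes. With the block, a library without its same-numbered partner is fitted by its own number and adds nothing to the comparison of groups. Fold changes without 1 library thus nearly repeat those without its number. The cause of these changes was not tested. Of the genes named, only some that did not pass the test changed sign. With the length trend removed these were Grin1 (0.066), Gria2 (0.061), Kalrn (0.042), Slc1a3 (0.0039), Fezf2 (-0.073), Drd1 (-0.029), Fos (-0.098) and Cck (-0.016). Fos was at -0.052 with no replicate block and -0.046 with 9 libraries and no block. Over the leave-one-out fits Grin1 ran from -0.23 to 0.016, Fezf2 from -0.076 to 0.14, Drd1 from -0.028 to 0.13, Fos from -0.32 to 0.25, Egr1 from -0.13 to 0.31 and Cck from -0.011 to 0.50. Depth limits Pm20d1, Serpinc1 and Tek, whose counts were low.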

Other observations

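Saline self-administration libraries were placed beside the other groups on 1 common scale of the 9 IP libraries, as values with no comparison, since the saline group took no part in the fit. Zbtb37 was at 3.60, 52.4 and 72.7 CPM in saline 1, 2 and 3, against 2.15, 50.4 and 29.3 CPM in cocaine and 6.30, 71.5 and 83.9 CPM in yoked. In number 3 the saline value lay near yoked, and in number 2 near cocaine. Neat1 was at 1.84, 100.2 and 100.1 CPM in saline, 0.366, 76.7 and 46.6 CPM in cocaine and 1.44, 104.6 and 140.2 CPM in yoked. Malat1 was at 215, 3549 and 4331 CPM in saline, 102, 4076 and 1559 CPM in cocaine and 236, 4225 and 5312 CPM in yoked. Saline was the lowest group for Malat1 in number 2 and lay between the others in numbers 1 and 3. Tet2 was at 37.2, 215 and 209 CPM in saline, 17.9, 192 and 119 CPM in cocaine and 40.0, 240 and 259 CPM in yoked. Churc1 was at 34.97, 21.6 and 28.03 CPM in saline, 89.0, 25.2 and 30.2 CPM in cocaine and 32.7, 23.1 and 15.0 CPM in yoked. The number 1 value of cocaine and the number 3 value of yoked were the extremes for Churc1.

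Further lists fixed for the tissue gave 0 calls. Heat shock and folding chaperones lay above yoked for 18 of 21 genes (median 0.19, and 0.11 without the libraries of number 3), with a ratio of 0.05, 0.12 and 0.37 in numbers 1, 2 and 3. Acetylcholine receptor genes lay below yoked for 10 of 13 (median -0.27), with a ratio of -0.28, -0.21 and -0.16, and their median was -0.27 with the length trend removed. GABA receptor subunits had a median of -0.12 over 14 genes and synaptic vesicle release genes -0.10 over 30, which were -0.07 and -0.03 without the libraries of number 1. The medians of 18 circadian clock genes (-0.09), 20 endoplasmic reticulum stress genes (0.11), 22 cholesterol genes (0.06) and 15 stress hormone signalling genes (0.05) changed sign when 1 replicate number was left out, the first 2 to 0.10 and -0.03 without number 1 and the others to -0.01 and -0.10 without number 3.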
